A study of Homo sapiens with 5 samples.

Results

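The genes described are 10 immediate early genes of LX-2 cells: EGR1, EGR2, EGR3, NR4A1, NR4A2, NR4A3, IER2, IER3, IER5 and MYC. They were chosen by name and found by the Ensembl gene ID of the current symbol; all 10 were among the 19936 genes of the deposited files. LX-2 is a human cell line derived from hepatic stellate cells, which deposit collagen in the injured liver. The cells received either an siRNA, a short RNA that degrades its target transcript, against LIX1L (3 libraries, LIX1L siRNA 1 to 3) or a control siRNA (2 libraries, control 1 and 2), and were sequenced 48 h later. Both groups were the same line and both were transfected, and no untransfected cells are among the 5 libraries. Separate cultures are not named for the libraries within a group, so p-values measure only how far these libraries spread, and that spread may be technical. The sample titles do not say whether LIX1L siRNA 1 to 3 are repeats of the same siRNA or different siRNAs.

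Immediate early genes are switched on within minutes of a stimulus, such as serum, a growth factor, stress or fresh medium, without new protein synthesis. Signals through the ERK kinases reach serum response factor (SRF) and its ternary complex partners at a DNA element called the CArG box, and cyclic AMP or calcium signals reach CREB at elements that contain TGACG. The transcripts are short-lived, so their level at any time follows recent signalling closely. EGR1, EGR2 and EGR3 encode zinc finger transcription factors that bind GC-rich sites, and EGR1 in stellate cells and fibroblasts takes part in responses to growth factors and TGF-β. NR4A1, NR4A2 and NR4A3 encode orphan nuclear receptors. IER2, IER3 and IER5 encode small proteins without a known enzymatic activity, and MYC encodes a transcription factor of growth and proliferation.

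The upstream sequences are shown first, because CArG boxes and TGACG letters are the elements through which these genes are classically induced. They are the 250 bases before a RefSeq start site on GRCh38.p14, 5′ to 3′, with CArG boxes and TGACG (or its complement CGTCA) in capitals. RefSeq promoters matched 6 of the 10 symbols. EGR1 (chr5:138465229-138465478, plus strand), the gene with the largest difference here, held 2 CArG boxes and 2 TGACG matches:
EGR1: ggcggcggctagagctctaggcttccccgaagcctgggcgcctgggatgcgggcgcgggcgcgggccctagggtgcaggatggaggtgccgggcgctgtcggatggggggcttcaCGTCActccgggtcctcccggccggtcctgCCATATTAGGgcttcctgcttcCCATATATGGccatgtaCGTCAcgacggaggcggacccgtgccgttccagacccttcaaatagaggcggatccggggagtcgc
EGR2 has 3 annotated starts, and the one shown (chr10:62816367-62816616, minus strand) held 1 CArG box and 2 TGACG matches, while the other starts held none:
EGR2: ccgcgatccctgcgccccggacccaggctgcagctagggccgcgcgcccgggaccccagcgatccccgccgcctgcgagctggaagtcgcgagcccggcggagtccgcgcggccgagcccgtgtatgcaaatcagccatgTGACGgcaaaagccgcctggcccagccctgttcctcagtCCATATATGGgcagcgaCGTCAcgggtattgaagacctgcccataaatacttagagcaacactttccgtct
NR4A3 (chr9:99821635-99821884, plus strand), the only gene of the 10 with a positive difference, held 4 TGACG matches and no CArG box:
NR4A3: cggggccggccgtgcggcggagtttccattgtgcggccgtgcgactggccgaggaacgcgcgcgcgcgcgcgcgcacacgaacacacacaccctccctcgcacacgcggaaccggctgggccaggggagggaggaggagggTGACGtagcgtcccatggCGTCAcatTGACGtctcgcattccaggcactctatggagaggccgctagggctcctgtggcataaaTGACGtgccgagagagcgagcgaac
IER5 (chr1:181088450-181088699, plus strand), one of the least changed genes, held neither:
IER5: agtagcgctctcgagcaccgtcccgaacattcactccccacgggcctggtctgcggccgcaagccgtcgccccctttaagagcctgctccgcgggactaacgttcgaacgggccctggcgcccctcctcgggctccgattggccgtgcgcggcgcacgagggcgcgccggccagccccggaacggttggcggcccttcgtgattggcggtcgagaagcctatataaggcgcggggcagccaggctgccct
IER2 held 1 TGACG match and no CArG box, and the 2 starts of NR4A1 that were searched held neither. Of 35116 RefSeq promoters of the same length, 1.16% held a CArG box and 21.2% held TGACG on either strand. The letters GCGTGGGCG, a binding site of EGR factors, and AAAGGTCA, a binding site of NR4A receptors, were in none of these windows of the 6 genes and in 0.72% and 1.05% of all promoters. A match is a run of letters, and says nothing of binding in these cells. The relation between these matches and the fold changes of the 10 genes was not tested.

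The libraries held 14856104 to 17811940 reads over genes with LIX1L siRNA and 14877647 to 18294056 with control siRNA. Levels are given as RPM, the reads of a gene scaled to a common library total of 1e+06, or as the deposited FPKM. LIX1L itself (ENSG00000271601) was at 6.60, 7.08 and 3.65 RPM in LIX1L siRNA 1, 2 and 3, against 26.4 and 35.5 RPM in control 1 and 2, so the labels and the targeted gene go together. LIX1L fell by 0.87 on the log2(FPKM + 1) scale (SE 0.11, limma adjusted p = 0.0384; 0.0715 to 0.228 without any 1 LIX1L siRNA library). An antisense gene and a coding gene on the opposite strand overlap its whole span, so their reads could not be set apart. Of 12 stellate cell markers, 10 had at least 1 RPM in every library, and LRAT, which stores retinol in quiescent stellate cells, was under 0.25 RPM in all. Summed stellate cell markers were at 6111 to 6607 RPM with LIX1L siRNA, against 3380 to 9785 RPM in controls. All 5 hepatocyte markers were at or near 0 in all libraries. The summed macrophage markers were at 5.05 to 8.47 RPM with LIX1L siRNA, against 10.2 to 36.4 RPM in controls, with CD68, C1QA and CD163 under 0.25 RPM throughout. Summed cholangiocyte markers were at 53.9 to 105 RPM with LIX1L siRNA, against 31.4 to 46.4 RPM in controls, with KRT19 and EPCAM under 0.25 RPM throughout. Summed endothelial markers were at 1.35 to 3.38 RPM with LIX1L siRNA, against 1.08 to 1.15 RPM in controls, with CDH5 under 0.25 RPM throughout. The part of these markers in the results below was not tested. Mitochondrially encoded transcripts took 1.08 to 1.29% of reads with LIX1L siRNA and 2.24 and 3.35% in the controls, and their part in the results below was not tested. LIX1L siRNA 1 and 2 were far closer to each other (chi-square per gene 5.59) than any other pair (55.4 or above). LIX1L siRNA 3 alone came with read counts and gene lengths, and the sample titles do not say whether it was prepared apart.

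Of the 10 genes, 9 had a lower and 1 a higher mean RPM after LIX1L siRNA, but only EGR1 and IER3 passed the test. In 6 genes (EGR1, IER2, IER3, IER5, NR4A1 and MYC) all 3 LIX1L siRNA libraries lay below both controls, and in the other 4 the groups overlapped. Such a separation downward was seen in 21.8% of the 13026 genes with enough reads for edgeR, and upward in 22.2%. The main test, limma on log2(FPKM + 1) with Benjamini-Hochberg adjustment over all genes tested, covered 5 of the 10 (EGR1, IER2, IER3, IER5 and MYC). EGR2, EGR3 and the NR4A genes stayed under its minimum of 1 FPKM in 2 libraries. The deposited lengths are gene spans with introns. In RPM per kilobase of the longest transcript, EGR2 and NR4A1 were above 1 in every library. NR4A2 and NR4A3 were below 1 in every library, and EGR3 was above 1 only in control 2 (1.51). These genes were tested with edgeR's quasi-likelihood test on reads recovered from the FPKM, which covered all 10. Limma called 2 of the 5 lower and none higher, where it called 1.13% of 6464 genes lower and 0.743% higher, 1.87% in all. All 5 were separated downward, as were 23.0% of the genes limma tested (23.5% upward). EdgeR called the same 2 of 10 lower, where it called 0.883% of 13026 genes lower and 0.56% higher, 1.44% in all. DESeq2 called 3 of the 10 lower (EGR1, IER2 and IER3), where it called 6.24% of genes lower and 6.34% higher, 12.6% in all. Limma on log2(RPM + 0.5) called 1 of the 10 lower (IER3; EGR1 had an adjusted p of 0.0510), where it called 0.481% of genes lower and 0.435% higher, 0.916% in all.

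**Figure D1:**
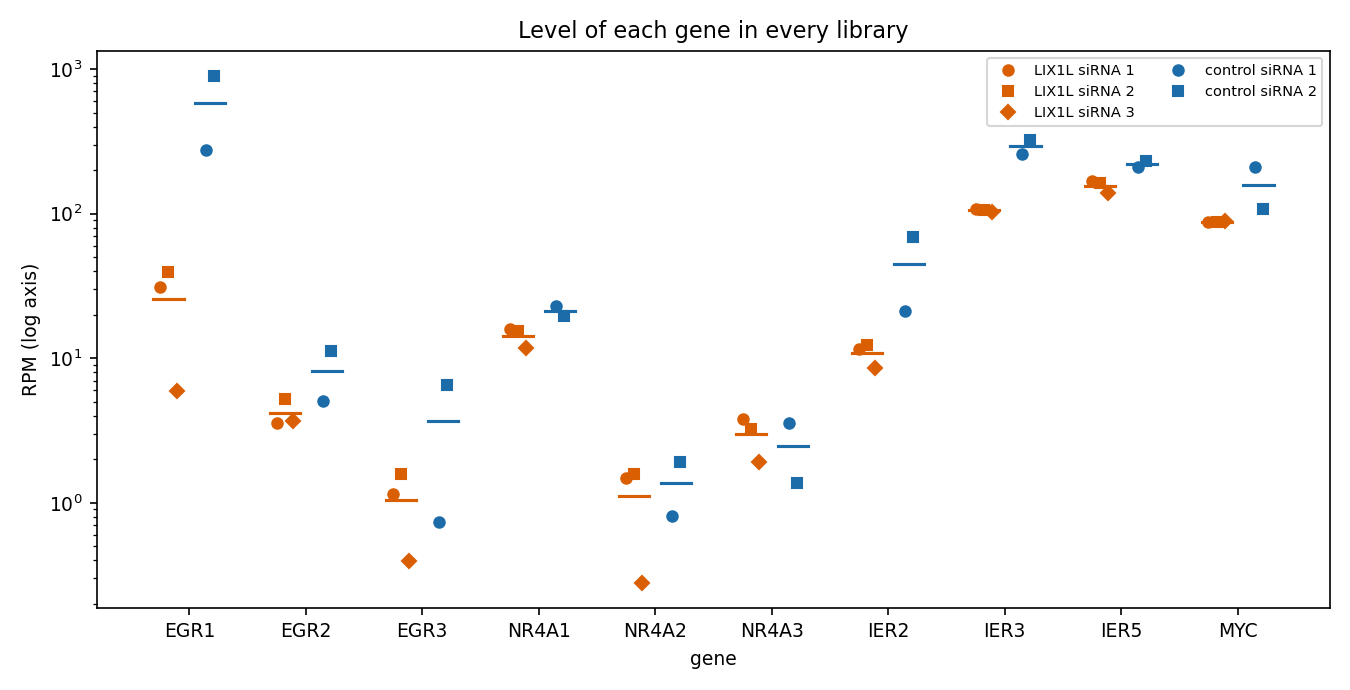
RPM of the 10 genes (log axis) in each LIX1L siRNA library (orange, left) and each control library (blue, right), with a bar at each group's mean. EGR1 spans 5.89 to 39.5 RPM with LIX1L siRNA and 276 to 895 RPM in controls, and EGR3, NR4A2 and NR4A3 lie lowest, with overlapping groups.

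EGR1 (ENSG00000120738, GRCh38 chromosome 5, 138465490 to 138469315, plus strand) fell the most of the 10. It had 462, 597 and 105 reads in LIX1L siRNA 1, 2 and 3, against 4107 and 16365 reads in control 1 and 2. In RPM these were 31.1, 39.5 and 5.89 with LIX1L siRNA, against 276 and 895 in the controls. No LIX1L siRNA library came near either control, yet the spread within each group was wide: control 2 held 3.24 times the RPM of control 1, and LIX1L siRNA 3 was 5.99-fold below the mean of LIX1L siRNA 1 and 2. The mean was 25.5 ± 17.5 RPM (SD, n = 3) with LIX1L siRNA and 585 ± 437 RPM (SD, n = 2) with control siRNA. On the log2(FPKM + 1) scale EGR1 fell by 4.35 (SE 0.75, limma adjusted p = 0.0482), and edgeR gave -4.57 (adjusted p = 0.0492), the 3rd lowest of 13026 genes. EGR1 did not pass in several other settings: the limma adjusted p was 0.0770 to 0.228 without any 1 LIX1L siRNA library and 0.168 with LIX1L siRNA 1 and 2 averaged. The limma adjusted p was also 0.194 without the minimum level, 0.0520 with a pseudocount of 0.1 and 0.0502 with median-ratio scaling. The limma difference was -5.20 without control 1 and -3.51 without control 2. Against control 1 alone, the LIX1L siRNA mean was 10.8-fold lower in RPM.

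EGR2, a zinc finger factor known from Schwann cells and lymphocytes, was far less abundant. It had 53, 79 and 65 reads (3.57, 5.23 and 3.65 RPM) in LIX1L siRNA 1, 2 and 3, against 75 and 204 reads (5.04 and 11.2 RPM) in control 1 and 2. LIX1L siRNA 2 lay above control 1, so the groups overlapped, and edgeR gave -0.997 (adjusted p = 0.186). EGR3 (chromosome 8), an EGR factor that is itself induced by growth factors, was scarce in every library. There were 17, 24 and 7 reads (1.14, 1.59 and 0.393 RPM) with LIX1L siRNA, against 11 and 120 reads (0.739 and 6.56 RPM) in the controls. Only control 2 stood above the other libraries, and the edgeR difference of -1.88 (adjusted p = 0.227) turned to 0.49 without it. Without control 1, the edgeR difference was -1.46 for EGR2 and -2.71 for EGR3. EGR4, the remaining member of the family, had 0.0673 RPM or less in every library.

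The NR4A receptors did not pass in any setting tried. NR4A1 (ENSG00000123358, chromosome 12), also called Nur77, had 16.0, 15.4 and 11.7 RPM in LIX1L siRNA 1, 2 and 3, against 22.9 and 19.6 RPM in control 1 and 2. All LIX1L siRNA libraries lay below both controls by a narrow margin, with means of 14.4 ± 2.34 RPM (SD, n = 3) with LIX1L siRNA and 21.2 ± 2.32 RPM (SD, n = 2) in controls, and edgeR gave -0.58 (adjusted p = 0.165). NR4A2 (chromosome 2), known as Nurr1 from dopaminergic neurons, had 22, 24 and 5 reads (1.48, 1.59 and 0.281 RPM) with LIX1L siRNA, against 12 and 35 reads (0.807 and 1.91 RPM) in the controls. Its groups overlapped and the edgeR difference of -0.35 (adjusted p = 0.788) had no stable sign. NR4A3 (chromosome 9), or NOR1, was the exception in direction, at 3.77, 3.24 and 1.91 RPM with LIX1L siRNA against 3.56 and 1.37 RPM in the controls. Control 1 lay inside the range of the LIX1L siRNA libraries, and edgeR gave 0.28 (adjusted p = 0.755). Over the pooled reads, which cover counting error only, controls held 1.48 times the RPM of LIX1L siRNA libraries for NR4A1 (exact 95% interval 1.33 to 1.65), 1.33 times for NR4A2 (0.874 to 2.01) and 0.808 times for NR4A3 (0.604 to 1.07).

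The 3 IER genes differed in size of change. IER3 (ENSG00000137331, chromosome 6, 30743199 to 30744554, minus strand), also called IEX-1, acts in cell survival and in ERK and NF-κB signalling. It had 108, 105 and 103 RPM in LIX1L siRNA 1, 2 and 3, against 259 and 325 RPM in control 1 and 2. The LIX1L siRNA libraries were nearly equal and all well below both controls, a 2.77-fold difference of the means. IER3 fell by 1.45 on the log2(FPKM + 1) scale (SE 0.19, limma adjusted p = 0.0384; edgeR log2 -1.49, adjusted p = 0.0365). It did not pass without any 1 LIX1L siRNA library (limma adjusted p = 0.0736 to 0.228). The limma difference was -1.61 without control 1 and -1.29 without control 2. IER2 (ENSG00000160888, chromosome 19, 13150415 to 13154908, plus strand), a nuclear protein linked to cell motility, had 11.5, 12.3 and 8.53 RPM with LIX1L siRNA, against 21.0 and 69.2 RPM in the controls. It was below both controls in each LIX1L siRNA library, and control 2 stood 3.29 times above control 1. Its difference of -1.51 (SE 0.42) did not pass limma (adjusted p = 0.0910) or edgeR (log2 -2.11, adjusted p = 0.0660). IER2 passed DESeq2 (adjusted p = 4.93e-04), and its limma difference was -2.28 without control 1 and -0.75 without control 2. IER5 (chromosome 1), which binds a protein phosphatase and takes part in heat shock factor control, had 169, 162 and 139 RPM with LIX1L siRNA, against 209 and 232 RPM in the controls. The groups did not overlap, but the gap was small, 1.41-fold (log2 -0.49, SE 0.18, limma adjusted p = 0.147).

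MYC (ENSG00000136997, chromosome 8) showed another pattern between libraries. It had 87.1, 87.3 and 88.9 RPM in LIX1L siRNA 1, 2 and 3, against 209 and 108 RPM in control 1 and 2. The LIX1L siRNA libraries agreed closely while control 1 held 1.94 times the level of control 2, the opposite order to EGR1 and IER2. MYC's difference of -0.73 (SE 0.28, limma adjusted p = 0.153) did not pass. The difference was -1.19 without control 2 and -0.28 without control 1.

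**Figure D2:**
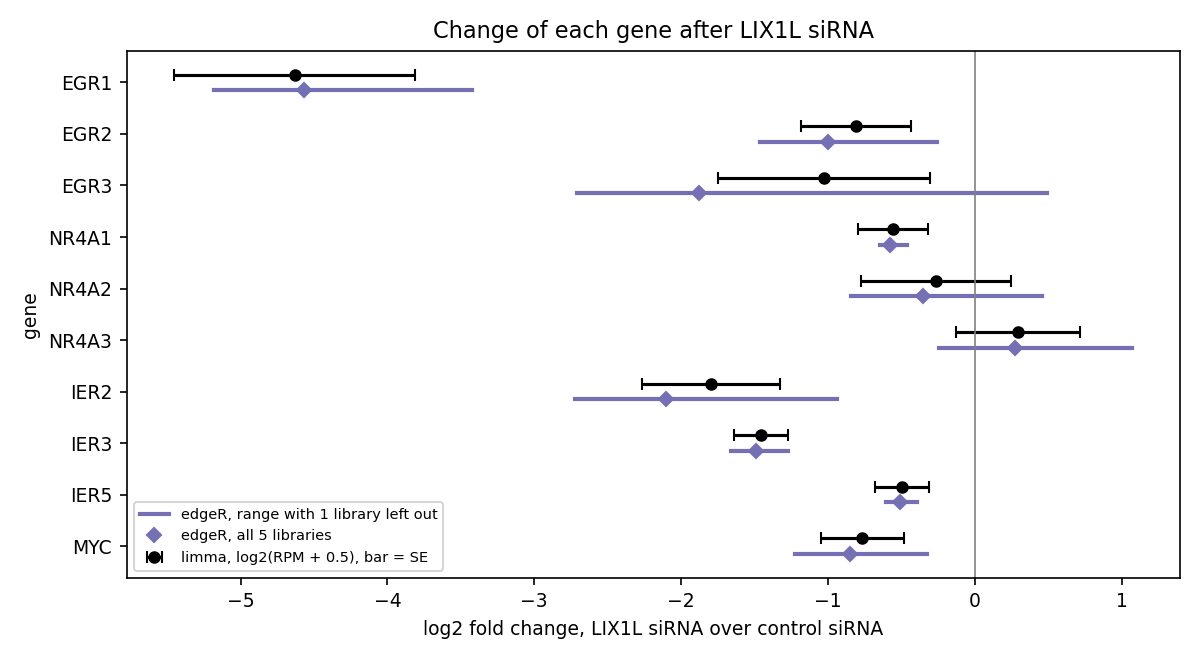
Log2 fold change of each gene, LIX1L siRNA over control siRNA: black points are limma on log2(RPM + 0.5) with SE bars, purple diamonds are edgeR with all 5 libraries, and purple lines run over the edgeR values with 1 library left out. EGR1 lies at -4.57 in edgeR and stays below -3 in all of them, while the lines of EGR3, NR4A2 and NR4A3 cross 0.

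The 2 controls differed from each other in several of the genes. Control 2 held over 2 times the RPM of control 1 in 5 of the 10 (EGR1, EGR2, EGR3, NR4A2 and IER2), against 7.85% of the genes edgeR tested. Control 1 held over 2 times the RPM of control 2 in 1 of the 10 (NR4A3), against 8.64% of genes. EGR1 and IER2 were 3.24-fold and 3.29-fold higher in control 2, EGR3 was 8.87-fold higher, and IER3 and IER5 differed by 1.25-fold and 1.11-fold. Among the LIX1L siRNA libraries, the mean of 1 and 2 was over 2 times library 3 in 3 of the 10 (EGR1, EGR3 and NR4A2), against 3.68% of genes, and NR4A2 had 5 reads there.

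**Figure D3:**
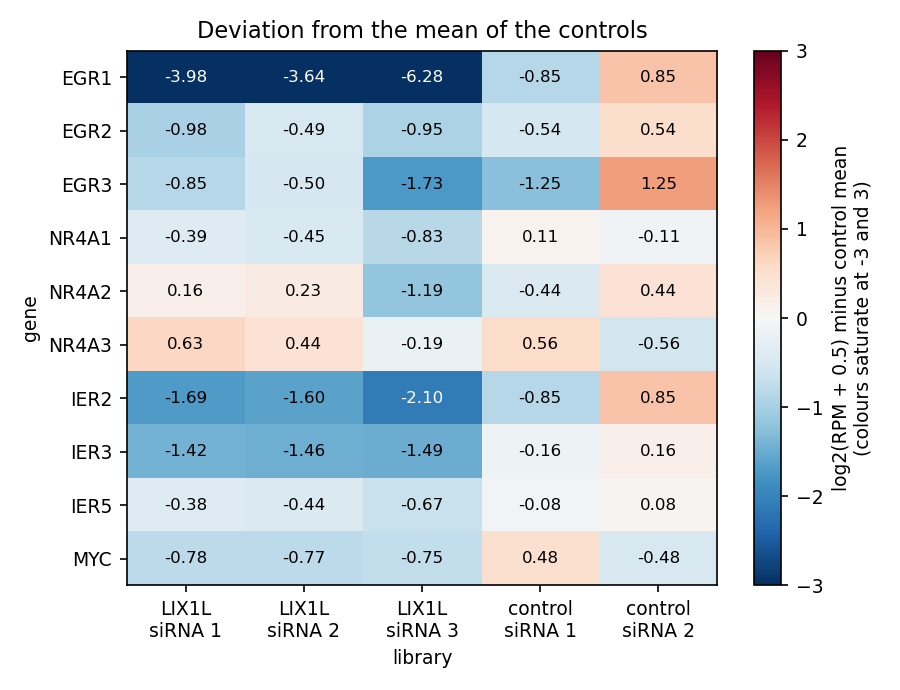
Deviation of log2(RPM + 0.5) from the mean of the controls for the 10 genes (rows) in the 3 LIX1L siRNA and 2 control libraries (columns), with each value printed; colours saturate at -3 and 3. EGR1 deviates by -3.98, -3.64 and -6.28 with LIX1L siRNA, and control 1 and 2 lie at -0.85 and 0.85.

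Levels were compared between genes as RPM per kilobase of the longest GENCODE 29 transcript. With LIX1L siRNA the order was IER3 (78.0 ± 1.82), IER5 (37.4 ± 3.80), MYC (37.1 ± 0.421), EGR1 (8.13 ± 5.58), IER2 (3.68 ± 0.679), NR4A1 (2.97 ± 0.484) and EGR2 (1.40 ± 0.316), all SD with n = 3. In controls it was IER3 (216 ± 34.4), EGR1 (187 ± 139), MYC (66.8 ± 30.2), IER5 (52.6 ± 3.89), IER2 (15.4 ± 11.6), NR4A1 (4.39 ± 0.480) and EGR2 (2.73 ± 1.46), SD with n = 2. NR4A3, NR4A2 and EGR3 were below 1 per kilobase in the mean of both groups. EGR1 was thus among the most abundant of these transcripts in controls and below MYC and IER5 after LIX1L siRNA. IER5 and MYC did not differ beyond their spread in either group, nor did EGR1, IER2 and NR4A1 with LIX1L siRNA separate fully, since LIX1L siRNA 3 had 1.88, 2.91 and 2.41 per kilobase for them.

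Annotated genes on the opposite strand overlap EGR3 (3153 bases), IER2 (1123 bases), IER3 (394 bases) and NR4A1 (1045 bases) in GENCODE 29, and the labels do not state whether libraries kept strand. In bulk RNA, fewer cells with a transcript and less transcript per cell cannot be told apart.

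The AU-rich letters ATTTA in a 3′ untranslated region (UTR) are a mark of many short-lived mRNAs. They were counted in the longest coding transcript of GENCODE 29, where the median of 18832 genes was 2 in a 3′ UTR of 1062 bases. IER5 and NR4A3 had 10 each, IER3 had 6, NR4A2 and MYC had 4, NR4A1 and EGR3 had 3, EGR2 had 2, EGR1 had 1 and IER2 had 0. Per kilobase, MYC with 8.40, IER3 with 6.64 and NR4A1 with 5.39 were the densest, and 2.18%, 4.42% and 7.79% of genes had as many or more. IER5 was the only one of the 10 with the longer run TTATTTATT (3 matches, found at least once in 8.25% of genes). The 28-base stretch of each 3′ UTR with the most matches is shown for the gene with the largest fall, the other gene that fell and IER5, with ATTTA in capitals:
EGR1: gtaaATTTAtaaatatattcaggagttg
IER3: taatATTTAtatgtATTTAtgtacgtcc
IER5: ctttATTTATTTATTTATTTAattataa
The relation between the number of matches and the fold change was not tested.

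Other immediate early genes were listed by name for comparison. Of 42, 39 were tested by limma, 5 fell and none rose, with a median log2 difference of -0.50, against -0.01 over all 6464 genes tested; 28 differences were negative, and edgeR called 6 of 41 lower (median -0.53, against -0.04 over all genes). FOS, the AP-1 subunit, had 2.42, 2.58 and 1.46 RPM with LIX1L siRNA, against 50.6 and 198 RPM in the controls. FOSB, DUSP1 (a phosphatase of MAP kinases), NFIL3 (a bZIP repressor) and JUN also fell (limma adjusted p = 0.0389, 0.0443, 0.0449 and 0.0482). JUN had 272, 272 and 321 RPM with LIX1L siRNA, against 579 and 664 RPM in the controls. Over all genes tested, limma called 1.13% lower and edgeR 0.883%. Of the 41 genes edgeR tested in the list, 17 were separated downward and 4 upward, against 21.8% and 22.2% of all genes. The 4 were KLF6, DUSP4, DUSP5 and TRIB1. This list holds genes whose fall was known from these data when it was drawn up.

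No listed gene that encodes a signalling step before the response passed limma or edgeR with all 5 libraries and no replicate block (replicate number as a term of the model). Of 4 tested genes of SRF and its ternary complex partners, 1 was negative and none passed (median 0.24); ELK4 was at 2.73 ± 0.408 FPKM with LIX1L siRNA and 1.62 ± 0.692 FPKM with control siRNA (limma adjusted p = 0.150), and ELK1 was at 6.21 ± 0.142 FPKM with LIX1L siRNA and 4.58 ± 1.87 FPKM with control siRNA (limma adjusted p = 0.274). Of 10 tested genes of the ERK cascade, 4 were negative and none passed (median 0.12); HRAS, a GTPase upstream of the cascade, was at 6.58 ± 1.04 FPKM with LIX1L siRNA and 9.32 ± 0.433 FPKM with control siRNA (limma adjusted p = 0.153). Of 4 tested genes of the CREB family and its coactivators, 1 was negative and none passed (median 0.09); the acetyltransferase gene EP300 was at 1.43 ± 0.188 FPKM with LIX1L siRNA and 0.711 ± 0.266 FPKM with control siRNA (limma adjusted p = 0.0826), and CREB1 was at 1.16 ± 0.135 FPKM with LIX1L siRNA and 1.02 ± 0.368 FPKM with control siRNA (limma adjusted p = 0.661). RXRB, a partner of NR4A receptors, was at 6.05 ± 0.781 FPKM with LIX1L siRNA and 7.25 ± 0.589 FPKM with control siRNA (limma adjusted p = 0.389). Errors are SDs (n = 3 with LIX1L siRNA, n = 2 with control siRNA). These calls depend on the setting: EP300 passed DESeq2 with a log2 fold change of 1.01 (adjusted p = 0.0105), where 12.6% of all genes were called. All of these are transcript levels, and the activity of the encoded proteins was not measured.

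No listed gene downstream of EGR1 or in the MYC lists passed limma or edgeR with all 5 libraries and no replicate block, but some passed in other settings. NAB2, a corepressor that EGR factors induce, was at 4.33 ± 0.412 FPKM (SD, n = 3) with LIX1L siRNA and 6.11 ± 0.586 FPKM (SD, n = 2) with control siRNA (limma adjusted p = 0.138), and NAB1 was at 1.44 ± 0.0710 FPKM with LIX1L siRNA and 1.47 ± 0.102 FPKM with control siRNA (limma adjusted p = 0.915). Of 12 tested genes reported elsewhere as EGR1 targets, 9 were negative and none passed (median -0.50). Those with the smallest p were COL1A2, a chain of type I collagen, at 1.45 ± 0.382 FPKM with LIX1L siRNA and 3.20 ± 0.629 FPKM with control siRNA (limma adjusted p = 0.0683), and ICAM1, an adhesion receptor, at 3.42 ± 1.36 FPKM with LIX1L siRNA and 8.17 ± 1.31 FPKM with control siRNA (limma adjusted p = 0.0719). DESeq2 called 3 EGR1 target genes, among them COL1A2 (adjusted p = 0.00516) and ICAM1 (adjusted p = 0.00867), where it called 12.6% of all genes. With the replicate block, limma called 1 EGR1 target gene, ICAM1, among 94 genes in all. Of 20 tested MYC target genes, 13 were negative and none passed (median -0.09). NPM1, a nucleolar protein, was at 49.5 ± 22.6 FPKM with LIX1L siRNA and 83.5 ± 1.19 FPKM with control siRNA (limma adjusted p = 0.179), with 896, 859 and 1815 RPM in LIX1L siRNA 1, 2 and 3 and 1986 and 2026 RPM in the controls. HSPD1, a mitochondrial chaperone, was at 20.5 ± 1.15 FPKM with LIX1L siRNA and 15.3 ± 1.01 FPKM with control siRNA (limma adjusted p = 0.159). Of 5 tested genes of the MYC network, 1 was negative and none passed (median 0.38); MLXIP, a partner of MLX, was at 2.39 ± 0.187 FPKM with LIX1L siRNA and 1.51 ± 0.166 FPKM with control siRNA (limma adjusted p = 0.0932), and MNT, a repressor that competes with MYC, was at 1.72 ± 0.125 FPKM with LIX1L siRNA and 1.17 ± 0.330 FPKM with control siRNA (limma adjusted p = 0.169). DESeq2 called 3 genes of the MYC network, among them MLXIP (adjusted p = 0.0266), and no MYC target gene.

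**Figure D4:**
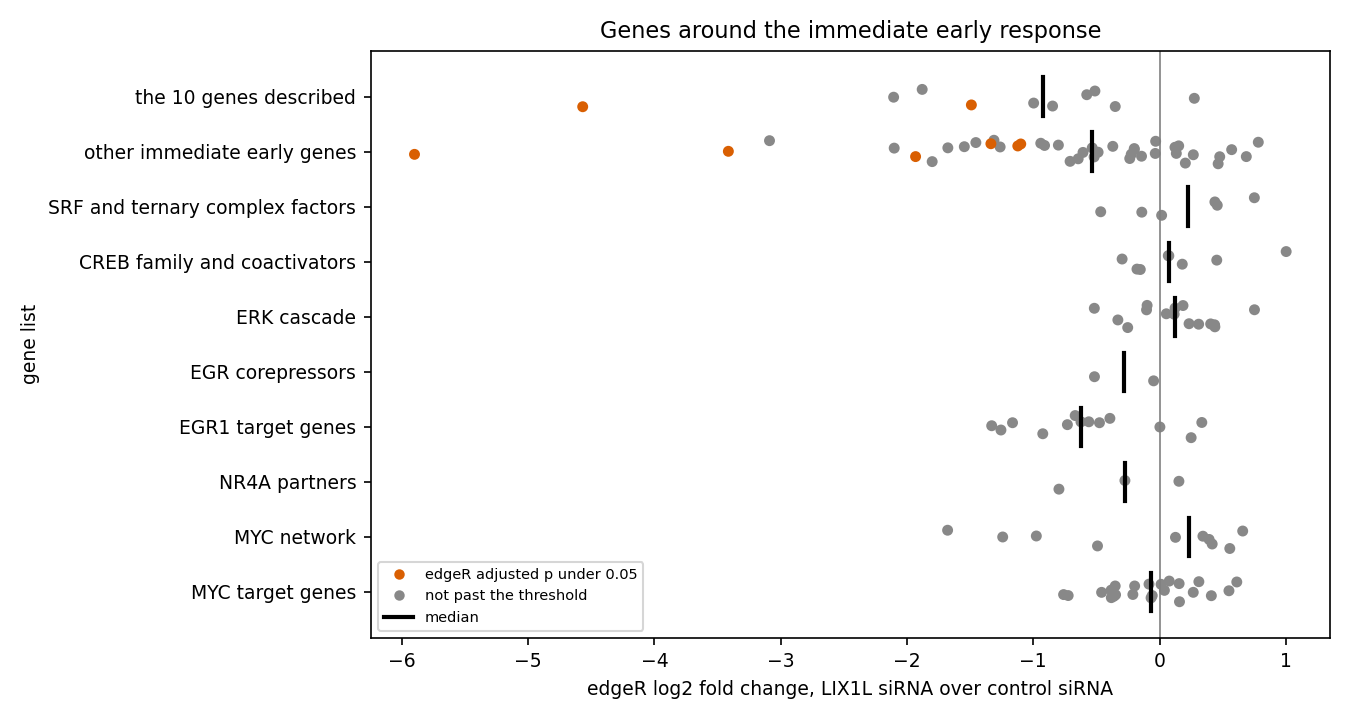
EdgeR log2 fold change, LIX1L siRNA over control siRNA, of each gene with enough reads in the 10 genes described and in 9 other lists; orange points have an adjusted p under 0.05 and black lines mark medians. The coloured points lie in the first 2 rows only, and the medians of the SRF, CREB and ERK rows are 0.23, 0.07 and 0.12.

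The genes whose profiles over the 5 libraries were most like those of 4 of the 10 were found by Euclidean distance between log2(RPM + 0.5) values relative to the control mean, among 11313 genes with a mean of at least 50 reads. For EGR1 these were FOS (distance 1.903), DHRS3 (2.86), which reduces retinaldehyde, and HES1 (3.26), a transcriptional repressor of the Notch pathway. DHRS3 had 5.38, 5.16 and 2.02 RPM with LIX1L siRNA, against 28.1 and 51.7 RPM in the controls, and HES1 had 2.76, 3.05 and 2.13 RPM with LIX1L siRNA, against 11.7 and 54.0 RPM in the controls. For IER3 they were HMGB1 (0.17), a chromatin protein and danger signal, NRP2 (0.18), a semaphorin and VEGF coreceptor, and AGTRAP (0.19), which binds the angiotensin receptor. For NR4A1 they were PSMA7 (0.09) and PSMC3 (0.13), subunits of the proteasome, and ZDHHC11B (0.14). For MYC they were UNG (0.11), a DNA repair glycosylase, PRR3 (0.13) and RNASEH2B (0.17), a subunit of ribonuclease H2. The smallest distance was larger for EGR1 than for the other 3 genes.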

How the data were processed

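Total RNA of LX-2 cells was taken with Trizol, per the labels' protocols, and the 5 libraries were assigned to groups from their siRNA label. The authors deposited FPKM for 19936 genes per library, per the file headers; the file of LIX1L siRNA 3 also holds the deposited read count and gene length. Bowtie 0.12.2 and the mouse build mm8 appear in the submitters' processing notes, at odds with the human gene IDs, so build and counting are uncertain. Lengths equal GENCODE 29 gene spans for 98.2% of genes found there. Reads were recovered from FPKM times length, divided by what 1 read is worth in that library; 100% of values were whole within 0.01 reads, and all 19936 equalled the deposited counts of LIX1L siRNA 3.

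Limma 3.58.1 in R 4.3.3 (trend and robust, two-sided, threshold 0.05) was the main test, on log2(FPKM + 1), which understates changes of low genes. It covered 6464 genes that reached 1 FPKM in 2 or more libraries. EdgeR 4.0.16 (TMM) and DESeq2 1.42.0 were run on the recovered reads, and limma on log2(RPM + 0.5). The tests were run on simulated counts with independent libraries and the same spread for all genes. That check does not cover libraries as unevenly alike as these. The members and lists were chosen with earlier results of these data known. Named are all members, LIX1L, in each list up to 5 genes past limma's threshold or else up to 2 with the smallest p, and 3 similar profiles for 4 members; EGR4 and the promoter and UTR searches were added later. Leaving out a library in edgeR was also added after seeing the data. A gene that the naming rule picks is not reported here.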

Additional observations from a re-analysis of the deposited data

How the results depend on the processing

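All values here count LIX1L siRNA against control. Of the 10 genes, limma called 2 with all libraries, 0 without the minimum level, 1 with a pseudocount of 0.1, 1 with median-ratio scaling, 1 on log2(RPM + 0.5), 0 with LIX1L siRNA 1 and 2 averaged, and 0 to 3 with 1 library left out. Of all genes, the main test called 121, against 50 without the minimum level, 188 in edgeR, 1673 in DESeq2, 0 with LIX1L siRNA 1 and 2 averaged and 0 to 1517 with 1 library left out. Of the genes in the 9 other lists it called 5, against 0 without the minimum level, 3 with median-ratio scaling, 3 on log2(RPM + 0.5), 23 in DESeq2, 0 with LIX1L siRNA 1 and 2 averaged and 0 to 29 with 1 library left out. The 0 counts fell without any 1 LIX1L siRNA library, where edgeR also called 0 genes. At an unadjusted p under 0.05, limma then passed 882 of 6319 to 1764 of 6359 genes and 3 of the 5 members it tested. EdgeR passed 1771 of 12978 to 3320 of 12921 genes and 4 or 5 of the 10. With LIX1L siRNA 1 and 2 averaged, limma passed 976 of 6464 genes and 3 of the 5 members tested. Without control 1 limma called 1517 genes and 3 of the 10 (EGR1, IER2 and IER3), and without control 2 it called 258 genes and 2 of the 10 (IER3 and MYC). The cause was not tested. Direction turned in edgeR for EGR3 without control 2 (0.49), NR4A2 with the replicate block (0.23), without control 2 (0.46) and without LIX1L siRNA 3 (0.12), and NR4A3 without control 2 (-0.24). It turned in limma for CREB1 without control 2 (-0.0812; from -0.0812 to 0.292 with 1 library left out) and NAB1 with the replicate block (0.0037), without control 1 (0.0213) and without LIX1L siRNA 3 (0.0037), from -0.0625 to 0.0213 with 1 library left out. The replicate numbers give only 2 pairs, and their deviations from the group means correlated at -0.11 and -0.10. The deviations of 2 controls from their own mean are equal and opposite, so these correlations cannot decide whether the numbers pair the libraries. With the replicate block limma called 94 genes, 1 of the 10 (EGR1) and 8 of the other lists (ICAM1 among them, adjusted p = 0.0349), and edgeR called 1146 genes. Genes with few reads (EGR3, NR4A2 and NR4A3) are limited by depth: 3 reads are worth 0.164 to 0.202 RPM.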

Other observations

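Genes with a CArG box in the 250 bases before a start were looked at as a description, chosen after the values were seen. Of 165 such genes tested by edgeR, 2 fell (1.21%; EGR1 and SOD3, an extracellular superoxide dismutase) and none rose, with a median log2 fold change of -0.06. Of all 10590 tested genes with a promoter, 88 fell (0.831%), 61 rose and the median was -0.03. Of 3764 genes with TGACG, 28 fell (0.744%) and 25 rose.

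Some other immediate early genes were uneven between the libraries of 1 group, and these were also picked after their values were seen. RHOB, a small GTPase, had 87.2, 85.2 and 513 RPM in LIX1L siRNA 1, 2 and 3, against 370 and 378 RPM in control 1 and 2. PPP1R15A, which reverses the integrated stress response, had 198, 186 and 207 RPM with LIX1L siRNA, against 933 and 161 RPM in the controls, and JUNB, an AP-1 subunit, had 20.9, 20.1 and 19.0 RPM with LIX1L siRNA, against 57.9 and 273 RPM in the controls. ATF3, a stress-induced factor, had 9.42, 7.42 and 13.1 RPM with LIX1L siRNA, against 68.0 and 19.0 RPM in the controls, so that control 1 was higher for PPP1R15A, ATF3 and MYC, and control 2 for EGR1, IER2, FOS and JUNB.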
